A study of Mus musculus with 4 samples.

Results

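The collagen genes were taken as every gene whose symbol reads Col, a number, the letter a and a number, such as Col1a1. The rule found 44 genes among the 32285 in the gene table, all 44 had at least 1 unique molecular identifier (UMI, a count of 1 captured messenger RNA molecule), and 42 had one in every brain slice. Their RNA was measured by Visium, in which a thin tissue slice is laid on a grid of barcoded spots that take up its messenger RNA. A spot can hold several cells of different types. The 4 areas carried 2 mouse brain slices each, and each slice came from its own mouse. Wild-type (WT) mice gave 1 slice at rest (uninjured) and 1 at 2 days post injury (dpi), which shared an area, and pairs of slices at 7 dpi and at 21 dpi with an area each. The remaining area carried 21 dpi slices of 2 Cthrc1(creER); R26(DTA) mice, called deleter here, in which cells that express the fibroblast gene Cthrc1 are meant to be killed by diphtheria toxin after tamoxifen. The submitters state that no deletion could be detected in these 2 mice. Injury was photothrombotic (PT), in which light on the skull activates an injected dye and clots the vessels of the cortex below. The study used mice of both sexes on a C57BL/6 background, in general 7 to 21 weeks old. The days of tamoxifen and the ages of these 8 mice are not given in the sources used here. Time and genotype coincide with the capture area and cannot be told apart from it.

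Collagens are secreted proteins of helically wound chains that form most of the solid matrix between cells. Fibrillar collagens (types I, II, III, V, XI, XXIV and XXVII) build the cable-like fibrils of scars. Network collagens include type IV, the sheet of every basement membrane, and types VIII and X. Type VI forms beaded filaments around cells, type VII anchors epithelial basement membranes, fibril-associated collagens (types IX, XII, XIV, XVI and others) decorate fibrils, and multiplexins (XV and XVIII) sit at basement membranes. In the brain most fibrillar collagen comes from fibroblasts of the meninges, of large vessels and of the choroid plexus, while endothelial and mural cells supply much of the type IV sheet of the vessels.

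The 44 genes lie on 15 mouse chromosomes, and 8 pairs of them are neighbours within 200 kb. The type IV genes stand head to head in pairs: the starts of Col4a1 and Col4a2 on chromosome 8 overlap by 21 bases, those of Col4a3 and Col4a4 on chromosome 1 are 72 bases apart, and those of Col4a5 and Col4a6 on the X chromosome are 1309 bases apart. Col3a1 and Col5a2 lie tail to tail on chromosome 1 with 24615 bases between them. The 250 bases before the start of 3 members are printed because the results turn on them: Col3a1 and Col6a3 were among the genes with the largest excess in fibrotic tissue, and Col7a1 was the member that differed with time there. The bases are RefSeq sequence of GRCm38.p6, written 5′ to 3′ on the strand of the gene, with matches to the searched motifs in capitals.
Col3a1, chr1:45311288-45311537, plus strand: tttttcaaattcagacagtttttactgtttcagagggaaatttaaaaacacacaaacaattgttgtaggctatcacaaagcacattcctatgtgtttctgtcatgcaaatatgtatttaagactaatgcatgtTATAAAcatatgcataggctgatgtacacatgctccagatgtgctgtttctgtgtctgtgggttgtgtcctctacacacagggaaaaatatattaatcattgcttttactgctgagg
Col6a3, chr1:90843972-90844221, minus strand: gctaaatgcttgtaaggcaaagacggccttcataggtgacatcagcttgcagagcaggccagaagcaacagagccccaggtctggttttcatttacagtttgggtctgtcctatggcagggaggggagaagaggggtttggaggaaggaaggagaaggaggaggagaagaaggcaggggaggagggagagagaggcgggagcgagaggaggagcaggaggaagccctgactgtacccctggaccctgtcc
Col7a1, chr9:108953336-108953585, plus strand: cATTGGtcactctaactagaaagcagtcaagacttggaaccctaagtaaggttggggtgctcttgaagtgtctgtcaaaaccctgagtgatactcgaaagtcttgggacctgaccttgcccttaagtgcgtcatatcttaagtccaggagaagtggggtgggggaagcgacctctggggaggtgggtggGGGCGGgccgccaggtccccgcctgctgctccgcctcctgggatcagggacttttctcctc
On both strands 4 motifs were searched: the CAAT box as CCAAT, the TATA box spelled TATAAA, the GC box written GGGCGG and the AP-1 site in the form TGANTCA. Col3a1 held the TATA box at position -117 from its start. Col7a1 held the GC box at position -61 and the CAAT box on the other strand at position -249, and Col6a3 held none of the 4. Of 38 such windows that matched 35 of the members, 57.9% held the GC box, 34.2% the CAAT box, 13.2% the TATA box and 2.63% the AP-1 site. Among all 32851 windows of this length the shares were 32.7%, 33.8%, 12.4% and 6.75%. A match describes letters only.

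Levels are given as UMIs per 10000 UMIs of the same spots. Capture starts at the poly(A) tail and a molecule counts once, so no scaling by gene length was made. Fibrotic spots were those with at least 5 UMIs per 10000 of Dcn plus Lum, 2 matrix proteoglycans of fibroblasts. All other spots were placed by their distance to the nearest fibrotic spot in steps of the hexagonal spot grid: the first ring lies at 1 step and distant spots lie at 3 or more. The slices held 827 to 1726 spots and 11332780 to 23677298 UMIs. There were 16 fibrotic spots at rest, 75 at 2 dpi, 64 and 191 in slices 1 and 2 at 7 dpi, 175 and 137 in the WT slices at 21 dpi, and 144 and 207 in the deleter slices. Their median depth ran from 3914 to 15332 UMIs per spot. At 2 dpi 41.3% of them had fewer than 3 UMIs of Dcn plus Lum, and at rest 81.25% of them lay on the tissue edge. These 2 slices thus define the fibrotic zone weakly. Slice 1 at 7 dpi, which enters the tests, shared part of this weakness. Of its fibrotic spots 62.5% lay on the edge and 14.1% had fewer than 3 UMIs of Dcn plus Lum, with a median of 5. Fibroblast markers other than collagens (Pdgfra, Islr, Fbln1, Mfap4, Igf2 and Slc6a13) summed to 7.13 and 12.7 UMIs per 10000 in fibrotic spots at 7 dpi and 12.2 and 16.1 at 21 dpi, against 0.943 to 1.33 in the distant spots of these slices. All 6 were detected in the fibrotic spots of every slice except that at rest, where Mfap4 was at 0. As the spots were chosen by genes of the same cells, a high collagen level in them is partly set by the choice. Within a spot, more collagen-making cells and more collagen RNA per cell cannot be told apart.

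**Figure D1:**
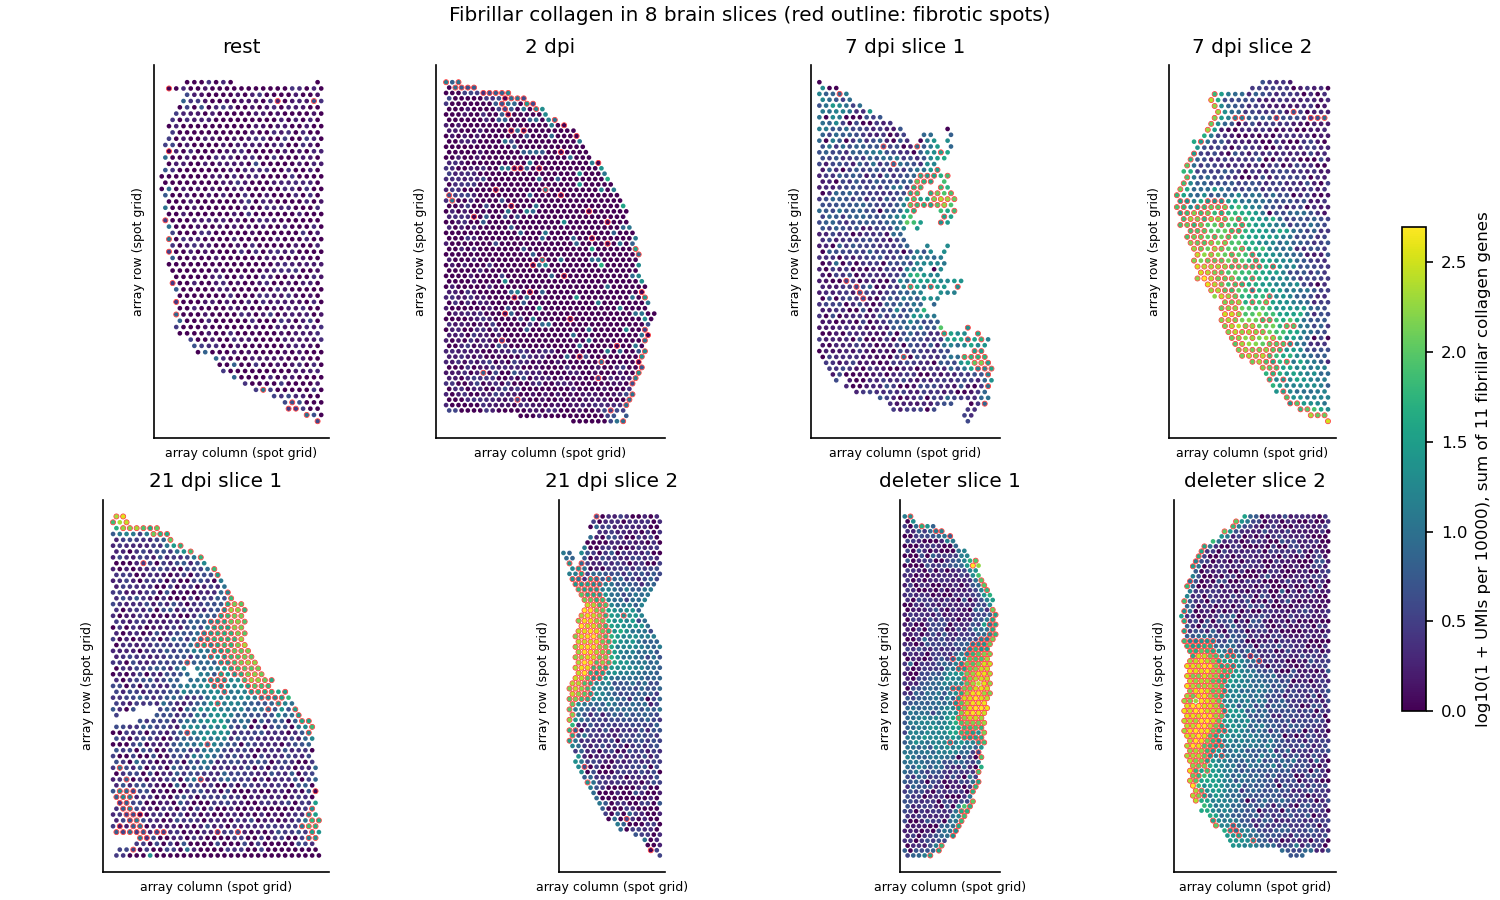
Maps of the 8 slices on the grid of the capture area (array column against array row). Colour is log10(1 + UMIs per 10000) of the summed 11 fibrillar collagen genes, and red outlines mark fibrotic spots. Bright spots form a compact patch at the tissue edge in the slices at 21 dpi, a patchier one at 7 dpi, and are few at rest and at 2 dpi.

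Collagen RNA was scarce in the uninjured slice. Over all its spots, Col4a1, a chain of the vascular basement membrane, stood at 0.177 UMIs per 10000 (95% Poisson interval 0.157 to 0.198) and Col25a1, a transmembrane collagen of neurons, at 0.172 (0.152 to 0.193). Both were above Col1a1 and Col3a1, the main chains of fibrillar type I and type III collagen, at 0.0397 (0.0307 to 0.0507) and 0.0238 (0.0170 to 0.0326). All 44 genes together summed to 9.36 UMIs per 10000 in the 16 fibrotic spots at rest, which rests on 111 UMIs, and to 1.49 in distant spots.

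At 2 dpi fibrillar collagen was still low. Over the whole slice Col1a1 stood at 0.106 (0.0893 to 0.125), Col3a1 at 0.158 (0.137 to 0.181) and Col4a1 at 0.396 (0.362 to 0.431). The same genes reached 1.33 and 10.5, 1.79 and 11.4, and 0.878 and 2.07 in slices 1 and 2 at 7 dpi. Rest and 2 dpi have 1 slice each, so these differences carry no test, and the intervals cover counting error only. In fibrotic spots the network collagens made up 15.3% of collagen UMIs at rest (17 of 111 UMIs), 29.1% at 2 dpi, and 12.0% and 7.94% at 7 dpi and 9.77% and 6.27% in the WT slices at 21 dpi. Col1a1, Col1a2 and Col3a1 together made up 37.8% at rest and 42.4% at 2 dpi, and then 66.6% and 73.6% in the 7 dpi slices and 68.1% and 77.9% in the WT slices at 21 dpi. The fibrillar share was therefore higher in each of the 4 later WT slices than in either early slice.

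The sum of all 44 genes in fibrotic spots was 12.9 UMIs per 10000 at 2 dpi, 63.7 and 156 at 7 dpi, and 73.2 and 185 in the WT slices at 21 dpi. The spread between the mice of one time was thus larger than the step from 7 to 21 dpi. Of the 44 members, 17 reached 1 UMI per 10000 in the fibrotic spots of at least 1 slice, and 27 stayed below.

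**Figure D2:**
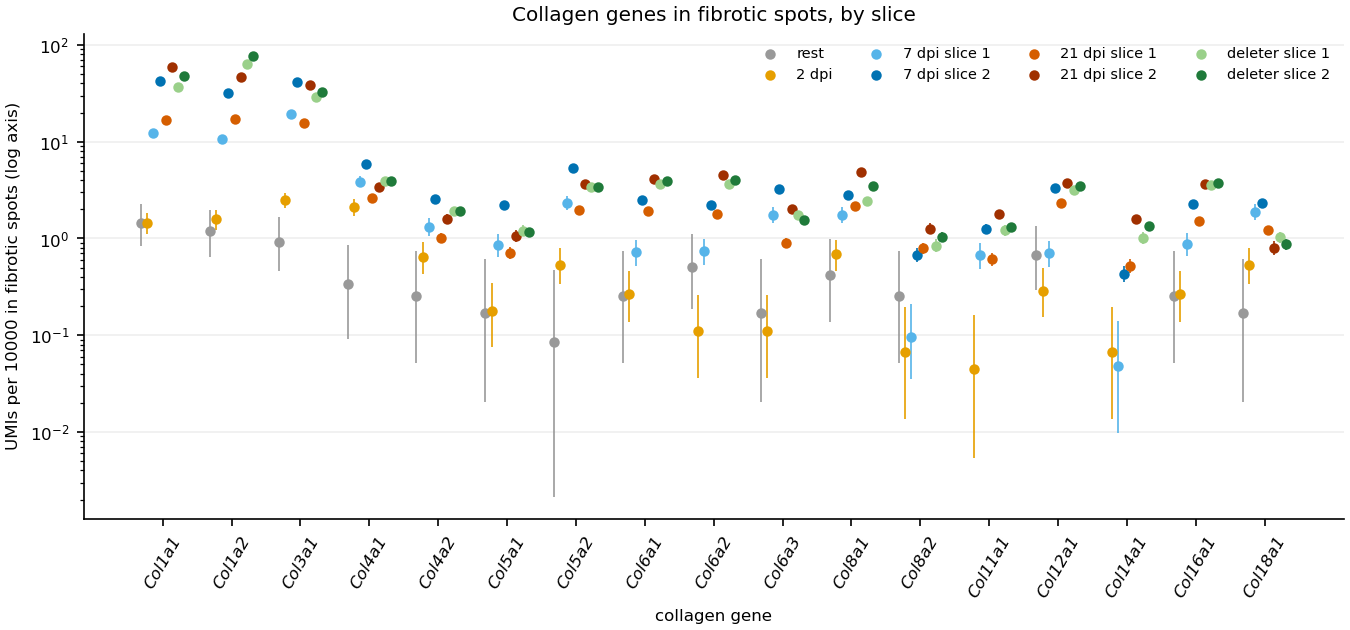
Level of the 17 collagen genes that reached 1 UMI per 10000 in fibrotic spots of a slice, on a log axis. Each point is 1 slice, lines are 95% Poisson intervals that cover counting error only, and a gene at 0 in a slice has no point. Col1a1, Col1a2 and Col3a1 lie above 10 in all 6 slices from 7 dpi on, and the other 14 genes lie below 6.

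Collagen genes of every class were higher in fibrotic than in distant spots of the 4 WT slices at 7 and 21 dpi. Of 38 members tested, 31 were higher in fibrotic spots and 1, Col25a1, was lower (edgeR quasi-likelihood test, slice as a block, adjusted p under 0.05). Over all 14768 genes tested, 27.9% were higher and 26.1% lower. The median log2 fold change was 2.83 over the members tested and 0.0079 over all genes. The members that passed the filter on low counts are those with enough UMIs in at least one zone. Col4a3, Col6a4, Col6a6, Col17a1, Col19a1 and Col28a1 did not pass it.

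The main fibrillar chains showed the largest excess. Col1a1 stood at 12.4 and 42.2 UMIs per 10000 in fibrotic spots at 7 dpi and at 16.7 and 59.5 at 21 dpi, against 0.520, 1.01, 0.496 and 1.28 in distant spots of the same slices in that order. Every fibrotic value lay above every distant value, and the log2 fold change was 5.21 ± 0.20 (SE, adjusted p = 2.12e-05). Col1a2, the partner chain of Col1a1, stood at 10.7, 31.7, 17.4 and 46.7 in fibrotic spots, with a log2 fold change of 5.34 ± 0.22 (adjusted p = 2.93e-05). Col3a1 stood at 19.3 and 41.3 at 7 dpi and at 15.8 and 38.3 at 21 dpi, with a log2 fold change of 5.29 ± 0.14 (adjusted p = 9.15e-06). In each time pair slice 2 was the higher one for all 3 genes.

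The minor fibrillar chains, which mix into type I fibrils and limit their width, were lower in level and also raised. Col5a2 stood at 2.35 and 5.38 at 7 dpi and at 1.97 and 3.67 at 21 dpi in fibrotic spots (log2 fold change over distant spots 4.85 ± 0.26, adjusted p = 4.24e-05). Col5a1 stood at 0.862, 2.20, 0.704 and 1.06 (3.10 ± 0.17), and Col11a1 at 0.670, 1.27, 0.614 and 1.77 (2.81 ± 0.29). The other members of the class rose with smaller changes: Col27a1 by 2.43, Col5a3 by 2.42, Col11a2 by 1.54 and Col2a1, the cartilage chain, by 1.46 on the log2 scale, of which Col2a1 lost its call or was not tested in 9 settings, among them DESeq2, the deleter slices alone and leaving out slice 1 at 21 dpi (1.47) or either slice at 7 dpi. Of the 11 fibrillar genes 10 passed the test upwards. The exception was Col24a1, at -0.84 ± 0.91 (adjusted p = 0.469).

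Type VI filaments and type VIII networks followed. Col6a3 stood at 1.76 and 3.26 at 7 dpi and at 0.901 and 2.03 at 21 dpi in fibrotic spots, with a log2 fold change over distant spots of 5.01 ± 0.26 (adjusted p = 3.99e-05). Its partner chains Col6a1 (0.718, 2.51, 1.91 and 4.08) and Col6a2 (0.734, 2.23, 1.80 and 4.50) had log2 fold changes of 3.67 ± 0.26 and 4.12 ± 0.16, and Col6a5 had 2.89 ± 0.33. Col8a1, a short-chain collagen made by vessel wall and corneal cells, stood at 1.74, 2.79, 2.16 and 4.83 (4.42 ± 0.54), and Col8a2 at 0.0958, 0.677, 0.793 and 1.26 (3.48 ± 0.52). Slice 1 at 7 dpi was thus the lowest for both.

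The basement membrane collagens were raised with smaller fold changes than Col1a1, Col1a2 and Col3a1. Col4a1 stood at 3.86, 5.83, 2.62 and 3.43 in fibrotic spots against 0.624, 0.780, 0.307 and 0.306 in distant spots (log2 fold change 3.09 ± 0.17, adjusted p = 4.66e-05). Col4a2 stood at 1.32, 2.56, 1.02 and 1.59 (2.70 ± 0.16). Col4a5 and Col4a6, which share a head-to-head start like that pair, had log2 fold changes of 2.44 ± 0.27 and 2.42 ± 0.30. Endothelial markers summed to at least 3 and at most 4.38 UMIs per 10000 in these fibrotic spots against 1.86 to 2.55 in distant spots, and 5 of 6 were higher. Mural cell markers summed to 5.01 to 5.67 against 1.35 to 1.79, and 6 of 7 were higher. Their part in the type IV result was not tested.

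Of the multiplexins, Col18a1, whose end fragment is endostatin, stood at 1.88, 2.35, 1.22 and 0.799 in fibrotic spots (log2 fold change 3.55 ± 0.16), and Col15a1 had a log2 fold change of 2.94 ± 0.29. The fibril-associated collagens split. Col12a1 (0.702, 3.32, 2.33 and 3.73), Col14a1 (0.0479, 0.431, 0.517 and 1.57) and Col16a1 (0.878, 2.29, 1.50 and 3.64) rose, with log2 fold changes of 3.86 ± 0.33, 4.85 ± 0.33 and 2.98 ± 0.34. Col9a2, a chain of cartilage type IX collagen, changed by 0.93 ± 0.33 (adjusted p = 0.0455), and it missed the threshold, among other settings, without the tissue edge, with fibrotic thresholds of 3 or 10, and in the deleter slices alone. Col9a1, Col9a3, Col20a1 and Col22a1 did not pass, with log2 fold changes from -0.09 to 1.58.

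Col10a1, the collagen of hypertrophic cartilage, had a log2 fold change of 5.15 ± 0.64, but its level in fibrotic spots reached only 0.112, 0.150, 0.00745 and 0.153 UMIs per 10000. Col7a1, the anchoring fibril chain, had a log2 fold change of 2.84 ± 0.29. Among the remaining members Col13a1 and Col23a1, both transmembrane collagens, and Col26a1 had log2 fold changes of 2.46, 2.63 and 2.44. Col24a1, Col4a4 and Col9a3 had negative log2 fold changes that did not pass (-0.84, -0.19 and -0.09). Col25a1 was the one member called lower than in distant tissue: 0.144 and 0.0794 at 7 dpi and 0.0707 and 0.0657 at 21 dpi in fibrotic spots, against 0.169, 0.109, 0.210 and 0.136 in distant spots. Its log2 fold change was -0.83 ± 0.27 (adjusted p = 0.0311), a call lost with a fibrotic threshold of 10, without the tissue edge, and without slice 1 (-0.51) or slice 2 (-0.82) at 21 dpi. The 5 neuron markers (Snap25, Syt1, Slc17a7, Gad1 and Rbfox3) were all lower in fibrotic spots too, with a median log2 fold change of -2.28, and their part in the Col25a1 value was not tested.

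Macrophage and microglia markers rose beside the collagens: all 5 were higher in fibrotic spots, and their sum was 24.6 to 33.5 UMIs per 10000 there against 5.40 to 18.7 in distant spots of the 4 WT slices. Choroid plexus markers summed to 10.2 and 2.36 in fibrotic spots at 7 dpi and to 129 and 29.2 at 21 dpi. Their part in the fibrotic levels was not tested. The fit with the 2 deleter slices alone, added after the data were seen, called 30 of the 32 members again. Its spots were again chosen by Dcn and Lum. Over all settings, this fit included, 17.7 to 34.1% of all genes were called higher and 18.7 to 34.7% lower. The share of all genes in this fit alone is not given here.

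**Figure D3:**
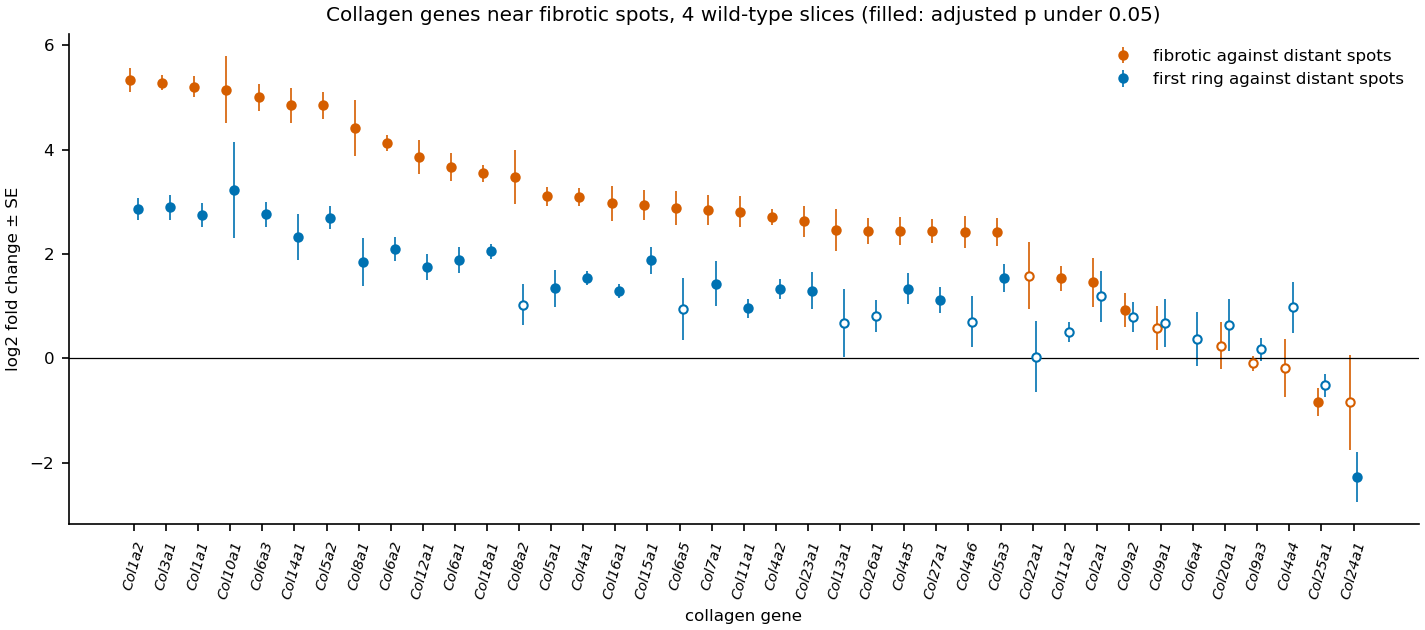
Log2 fold change ± SE of the collagen genes tested in the 4 WT slices at 7 and 21 dpi, for fibrotic against distant spots (orange) and for the first ring against distant spots (blue). Filled points passed an adjusted p of 0.05. The 11 genes farthest left, from Col1a2 to Col6a1, stand above 3.6 for fibrotic spots, and each has a lower blue point.

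Higher collagen RNA reached beyond the spots that Dcn and Lum mark. In the first ring 23 of 39 members tested were higher than in distant spots and 1 was lower, against 14.2% higher and 11.4% lower over all 14560 genes. The median log2 fold change was 1.30 over the members and 0.012 over all genes. Fibroblast markers were higher in the ring too, summing to 2.38 and 5.26 at 7 dpi and 3.26 and 3.10 at 21 dpi against 1.20, 0.943, 1.33 and 1.09 in distant spots, and all 6 passed the test. Macrophage and microglia markers summed to 19.8 to 26.2 in the ring against 5.40 to 18.7 in distant spots, and all 5 passed. Their part in the ring result was not tested. Col3a1 had a log2 fold change of 2.89 ± 0.25, Col1a2 2.87 ± 0.21, Col6a3 2.76 ± 0.23, Col1a1 2.75 ± 0.22 and Col5a2 2.70 ± 0.23. Col14a1 had 2.33 ± 0.44, Col6a2 2.10 ± 0.23, Col18a1 2.05 ± 0.14 and, after other members, Col4a1 1.54 ± 0.14. Col10a1 had 3.23 ± 0.92 (adjusted p = 0.0285) on 3 and 20 UMIs in the ring of the 7 dpi slices and 0 in both WT slices at 21 dpi. It lost its call or was not tested without either slice at 7 dpi, with a fibrotic threshold of 3, with distant spots at 6 or more steps, with at least 3 Dcn plus Lum UMIs, and in the deleter slices alone. The member that was lower was Col24a1, a fibrillar chain, at -2.28 ± 0.48 (adjusted p = 0.00771). Col24a1 lay at 0.00457 to 0.0108 in the ring and 0.0149 to 0.0842 in distant spots. Its ring level rests on fewer than 3 UMIs in each slice, and whole slices held 28 to 65 of its UMIs. It was not called with a fibrotic threshold of 10 (-1.83).

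For Col1a1, Col3a1, Col6a3 and Col4a1 the first ring held a larger part of the fibrotic level at 7 than at 21 dpi. The level in the first ring, as a percentage of that in fibrotic spots, was 23.8 and 31.8 for Col1a1 at 7 dpi and 14.9 and 10.4 later, at 21 dpi. For Col3a1 it stood at 21.8 and 44.8 and then 10.8 and 12.8, and for Col6a3 29.8 and 37.7 and then 10.4 and 10.1. Col4a1 fell less steeply, with 40.6 and 51.2 at 7 dpi and 24.3 and 28.0 at 21 dpi. For these 4 genes both 7 dpi slices lay above both 21 dpi slices. The deleter slices gave 13.9 and 9.95 for Col1a1 and 9.84 and 10.1 for Col3a1. These percentages were not tested, and the share of all genes with this order was not counted. Fibroblast markers other than collagens summed to 2.38 and 5.26 in the ring and 7.13 and 12.7 in fibrotic spots at 7 dpi. At 21 dpi they summed to 3.26 and 3.10 in the ring and 12.2 and 16.1 in fibrotic spots. The median fibrotic spot held 5 and 10 UMIs of Dcn plus Lum at 7 dpi and 19 and 30 at 21 dpi. The part of either in the percentages was not tested. In distant spots Col1a1 was 2.40 to 4.21% of its fibrotic level at 7 dpi and 2.16 to 2.96% at 21 dpi, and Col4a1 8.93 to 16.2% over the same 4 slices. Fibrotic spots held 38.7% and 71.0% of all Col1a1 UMIs of the slice at 7 dpi and 77.0% and 84.8% at 21 dpi. They were 6.54% and 20.2% of the spots at 7 dpi and 13.0% and 16.6% at 21 dpi. The shares of Col1a1 UMIs thus also depend on the size of the zone, which was smallest in slice 1 at 7 dpi.

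**Figure D4:**
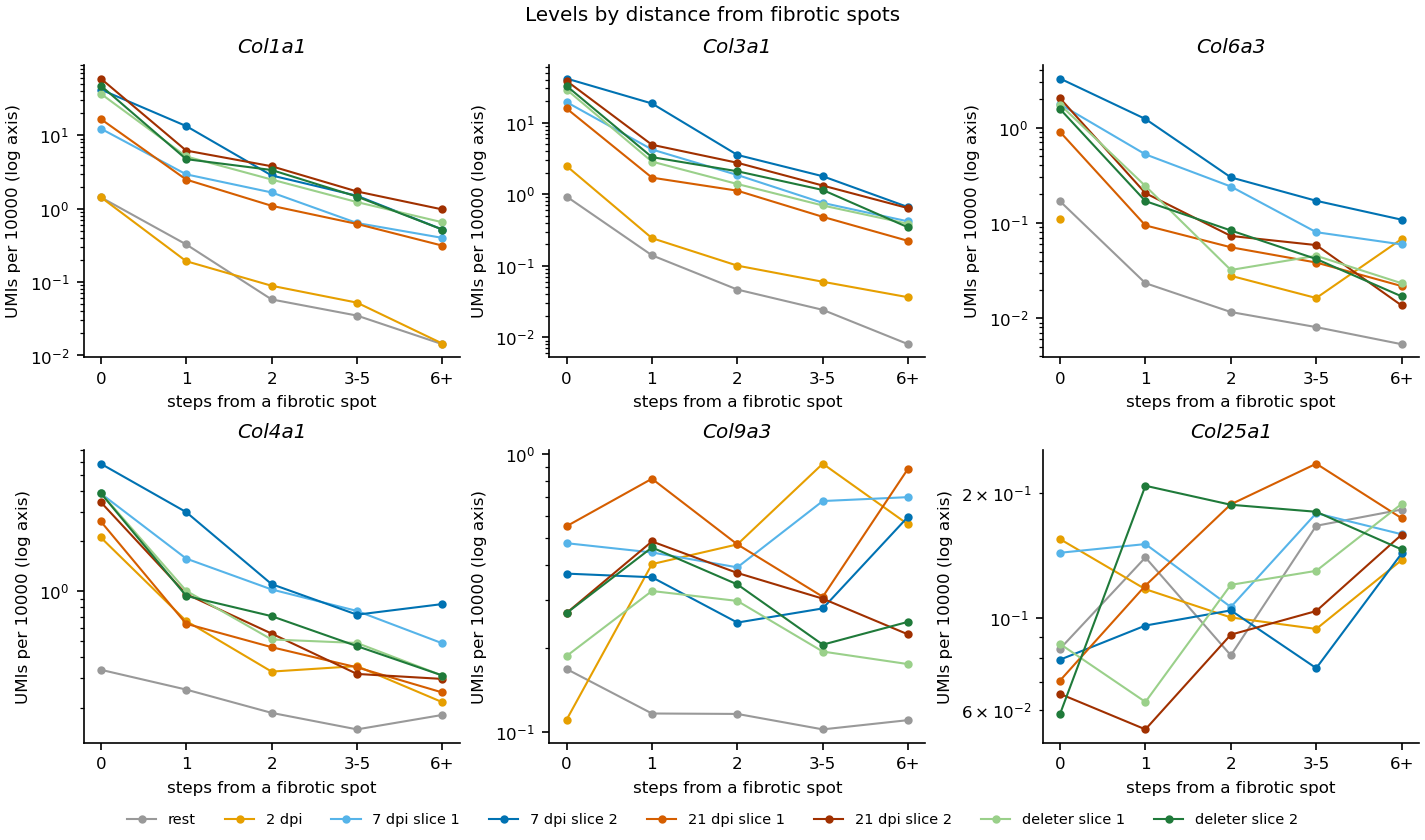
Level of 6 collagen genes by steps from the nearest fibrotic spot in the 8 slices, on log axes with a scale for each gene; a zone with 0 UMIs has no point. Col1a1, Col3a1, Col6a3 and Col4a1 fall from left to right in the 6 slices from 7 dpi on, apart from small rises of Col4a1 and Col6a3 at the far end, while Col9a3 and Col25a1 have no such fall.

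The difference in level between fibrotic and distant spots was compared between the times in one model. None of 38 members differed at an adjusted p under 0.05, against 2.62% of all 14768 genes with a larger difference at 21 dpi and 0.251% with a larger one at 7 dpi. By edgeR 9 members had an unadjusted p under 0.05, a cut at which all genes were not counted, and DESeq2 called 0. The median log2 difference was 0.36 over the members and 0.074 over all genes. Col16a1, which decorates fibrils, was at 1.27 ± 0.35 (adjusted p = 0.0947) and Col3a1 at 0.36 ± 0.15 (adjusted p = 0.281).

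Between 7 and 21 dpi few collagen genes passed the threshold. Over whole slices 0 of 40 members passed the threshold by edgeR. Of all genes 0.0254% were higher and 0.0127% lower at 21 dpi. By edgeR 3 members had an unadjusted p under 0.05, a cut at which all genes were not counted. DESeq2 called 2 members, Col7a1 and Col20a1. Col1a1 stood at 1.33 and 10.5 at 7 dpi and 3.33 and 11.3 at 21 dpi over the slice, so the mice of each time differed more than the times. Col20a1, a fibril-associated collagen, stood at 0.156 and 0.153 at 7 dpi and 0.0429 and 0.0397 at 21 dpi, and the deleter slices gave 0.0529 and 0.0266. Its log2 fold change was -1.94 ± 0.18 (edgeR adjusted p = 0.0779). Its groups did not overlap, which was also true of other members, such as Col8a2. The share of all genes without overlap was not counted.

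Within fibrotic spots 1 of 34 members tested differed between 7 and 21 dpi, Col7a1, and it was lower at 21 dpi. Over all 12637 genes tested 0.419% were higher and 0.301% lower. By edgeR 7 members had an unadjusted p under 0.05, a cut at which all genes were not counted. The median log2 fold change was -0.21 over the members and -0.0020 over all genes. Col7a1, the chain of the fibrils that anchor epidermis to dermis, stood at 0.431 and 0.522 UMIs per 10000 at 7 dpi and at 0.123 and 0.0931 at 21 dpi. The log2 fold change was -2.13 ± 0.28 (adjusted p = 0.0106). Its groups did not overlap, which was also true of other members, such as Col18a1 and Col14a1. The share of all genes without overlap was not counted. The deleter slices, not used in this test, lay near the other 21 dpi slices, at 0.140 and 0.154. In distant spots Col7a1 was also lower later, at 0.0471 and 0.0568 at 7 dpi and 0.0178 and 0.0307 at 21 dpi. Over whole slices its log2 fold change was -1.94 ± 0.41 (edgeR adjusted p = 0.201). Its fibrotic-to-distant difference was not called between the times (-0.94 ± 0.47, edgeR interaction, adjusted p = 0.374). The call in fibrotic spots is therefore not shown to be particular to them. The call was lost without slice 2 of 7 dpi and with other fibrotic thresholds, with log2 fold changes of -1.83 at 10 and -2.06 at 3 UMIs per 10000.

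The other members did not pass, with values on both sides of 0. Col18a1, at 1.88 and 2.35 at 7 dpi and 1.22 and 0.799 at 21 dpi, had a log2 fold change of -1.06 ± 0.24 (adjusted p = 0.102), and Col4a1 was at -0.66 ± 0.26 (adjusted p = 0.426). Col14a1 was at 1.81 ± 0.62 (adjusted p = 0.314) and Col8a2 at 1.17 ± 0.50 (adjusted p = 0.488), both with their lowest value in slice 1 at 7 dpi. Without slice 1 or without slice 2 at 21 dpi, other members were called beside Col7a1. Each of these fits leaves a single slice at 21 dpi. The share of all genes in them is not given here, so they are not read as results about collagens.

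The balance between chains was followed by ratios of UMIs within a slice. Type III collagen is known to precede type I in healing wounds, and the ratio of Col3a1 to Col1a1 in fibrotic spots stood at 1.56 and 0.978 in the 7 dpi slices and 0.943 and 0.643 in those of 21 dpi. The mean log2 difference was -0.67 (two-sided exact permutation test over slices, p = 0.333, the smallest that 2 against 2 slices can give). The deleter slices gave 0.783 and 0.683. The nearest ratios of the 2 times, 0.978 and 0.943, differed by little, and with a fibrotic threshold of 10 the groups overlapped (-0.45, exact p = 0.667).

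A pair of other ratios was noticed after the values were seen and is given without a test. Col6a3 to Col6a1, chains of one type VI molecule, stood at 2.44 and 1.30 in the 7 dpi slices, at 0.473 and 0.496 in WT at 21 dpi and at 0.477 and 0.399 in deleter slices. All 4 slices at 21 dpi lay below both at 7 dpi. Over whole slices the ratio was 1.25 in both slices at 7 dpi and 0.321 to 0.398 in the 4 slices at 21 dpi. Col6a2 to Col6a1 stayed between 0.890 and 1.10 in the fibrotic spots of all 6 slices. Over whole slices it was 0.597 and 0.911 at 7 dpi and 0.912 to 1.03 in the 4 slices at 21 dpi, so it was not constant there. Both type VI ratios in fibrotic spots of slice 1 at 7 dpi rest on 45 Col6a1 UMIs. Col1a2 to Col1a1 in fibrotic spots was 0.751 to 1.04 in the 4 WT slices and 1.70 and 1.60 in the deleter slices. In distant spots the same ratio was 0.675 to 0.856 in these WT slices and 1.36 and 1.42 in the deleter slices. The WT slices at rest and at 2 dpi gave 1.62 and 1.89 in distant spots, on 29 and 35 Col1a1 UMIs. In their fibrotic spots the ratio was 0.824 and 1.09, on 17 and 65 Col1a1 UMIs.

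**Figure D5:**
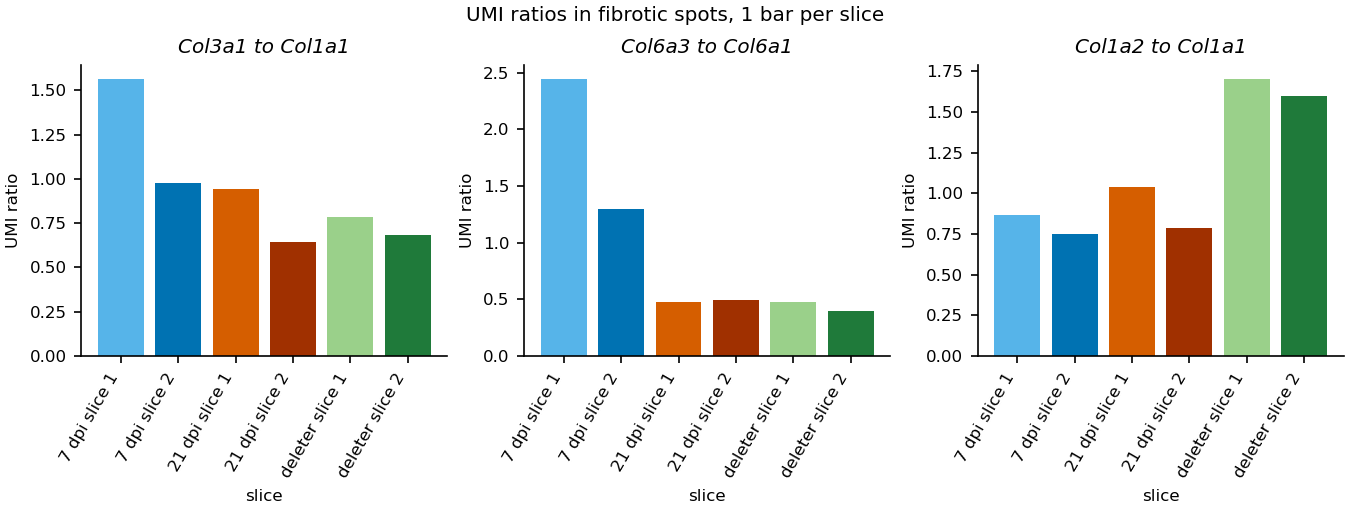
Ratio of UMIs of 2 collagen genes in fibrotic spots, with 1 bar for each slice from 7 dpi on and no error bar. Col3a1 to Col1a1 runs from 1.56 to 0.643, Col6a3 to Col6a1 is above 1.2 in both slices at 7 dpi and below 0.5 in the others, and Col1a2 to Col1a1 is highest in the 2 deleter slices.

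Some collagens were high in another place. Col9a3, Col8a1, Col8a2, Col4a3 and Col4a4, of which Col9a3, Col4a3 and Col4a4 are named after their values were seen, were high in distant spots rich in choroid plexus markers (Ttr, Kl, Folr1 and Kcnj13, at least 100 UMIs per 10000 in sum). The choroid plexus is the vascular tuft in the ventricles that makes cerebrospinal fluid. There were 88 such spots at 2 dpi, 56 and 1 at 7 dpi, 64 and 2 in the WT slices at 21 dpi, 6 and 62 in the deleter slices and 6 at rest. Col9a3 stood at 3.71 UMIs per 10000 in those spots at 2 dpi against 0.119 in the other distant spots. The same pair of values was 3.06 and 0.418 in slice 1 at 7 dpi, 4.12 and 0.165 in slice 1 at 21 dpi, and 1.92 and 0.127 in deleter slice 2. Col8a1 stood at 1.86 against 0.0557 at 2 dpi, 1.56 against 0.0729 in slice 1 at 7 dpi and 1.53 against 0.0590 in slice 1 at 21 dpi. Each slice with over 50 such spots showed this order for both genes.

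The type IV chains of specialised basement membranes followed at lower levels. Col4a3 stood at 0.155 in choroid-rich spots at 2 dpi against 0.00632 in other distant spots, and Col4a4 at 0.206 against 0.00506. Among members not listed above, Col18a1 stood at 0.509 against 0.0620 and Col6a5 at 0.126 against 0.00759 in the same slice, and Col13a1 at 0.0744 against 0.00759. Col17a1 had all 15 of its UMIs of distant spots in the choroid-rich ones. The whole slice at 2 dpi held more of these genes than the slice at rest: Col9a3 0.672 (0.629 to 0.718) against 0.109 (0.0940 to 0.127), Col8a1 0.372 (0.340 to 0.407) against 0.0477 (0.0377 to 0.0595), and Col8a2 0.148 against 0.0141. Choroid plexus markers in distant spots summed to 238 UMIs per 10000 at 2 dpi and 5.62 at rest, so the slices also differ in the structures they hold. Away from the choroid-rich spots Col9a3 was 0.119 at 2 dpi and 0.102 at rest, and Col8a1 0.0557 and 0.0431. These values have no replicate and no test.

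Genes that fold, cut and cross-link collagen, and genes of its receptors, were counted from lists of 27 and 11 genes. Of the 27 (prolyl and lysyl hydroxylases, chaperones, propeptide proteases and lysyl oxidases) 25 were tested, 22 were higher and 1, the propeptide enhancer Pcolce2, was lower in fibrotic than in distant spots, with a median log2 fold change of 1.58. Over all genes 27.9% were higher and 26.1% lower, with a median of 0.0079. In the first ring 17 were higher and 1 lower of 24 tested, against 14.2% and 11.4% of all genes. Serpinh1, the collagen chaperone HSP47, had a log2 fold change of 3.79 ± 0.19 in fibrotic spots. P4hb, a subunit of prolyl 4-hydroxylase, had 1.49 ± 0.16, and Ppib, a prolyl isomerase of the same pathway, 1.14 ± 0.15. In fibrotic spots 0 of 23 tested differed between 7 and 21 dpi by edgeR, where 0.419% of all genes were higher and 0.301% lower at 21 dpi. With shares this small, 0 of 23 does not set these genes apart from others.

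Of the 11 receptor genes 10 were tested, 8 were higher in fibrotic spots and 0 were lower, with a median log2 fold change of 2.24, beside the 27.9% and 26.1% of all genes given above. Mrc2, an endocytic receptor that takes up collagen fragments, had 4.13 ± 0.26, Itgb1, the shared chain of the collagen-binding integrins, 1.82 ± 0.23, and Lair1, an inhibitory collagen receptor of leukocytes, 1.49 ± 0.28. For 3 of the 10 receptors the difference between fibrotic and distant spots was larger at 21 than at 7 dpi, as for 2.62% of all genes: Ddr2, a tyrosine kinase receptor for fibrillar collagen, by 1.47 ± 0.33, Lair1 by 1.35 ± 0.24 and Itgb1 by 1.05 ± 0.20 on the log2 scale. Over all settings that share of all genes ran from 0.0329 to 6.26%. These 3 calls were not followed under the alternatives. Lair1 stood at 1.07 and 0.861 in fibrotic and 0.521 and 0.588 in distant spots at 7 dpi, and at 0.663 and 0.909 in fibrotic and 0.141 and 0.239 in distant spots at 21 dpi. Its fibrotic levels overlapped between the times and its distant levels did not. Macrophage and microglia markers also differed more in distant spots: at 7 dpi they summed to 13.6 and 18.7 in distant and 32.0 and 33.5 in fibrotic spots, and at 21 dpi to 5.40 and 5.90 in distant and 24.6 and 32.2 in fibrotic spots. Their part in the receptor result was not tested. Itgb1 stood at 1.88 and 3.01 in fibrotic and 0.838 and 1.21 in distant spots at 7 dpi. At 21 dpi it stood at 2.29 and 2.87 in fibrotic and 0.507 and 0.563 in distant spots. Ddr2 stood at 0.303 and 0.564 in fibrotic spots at 7 dpi and at 0.774 and 1.08 at 21 dpi. In distant spots it stood at 0.0793 and 0.0784 and then 0.0484 and 0.0735. Fibrotic levels of Ddr2 thus did not overlap between the times, unlike those of Lair1 and Itgb1.

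The deleter slices were compared with the WT slices of the same day in fibrotic spots. Cthrc1, whose promoter drives the recombinase, stood at 0.220 and 0.219 UMIs per 10000 in the WT slices and at 0.101 and 0.154 in the deleter slices there, on 59, 40, 21 and 42 UMIs. At 7 dpi it had stood at 1.10 and 1.40. Of the main chains, Col1a1 and Col3a1 in the deleter slices lay within the range of WT: Col1a1 at 37.0 and 47.7 against 16.7 and 59.5, and Col3a1 at 29.0 and 32.6 against 15.8 and 38.3. None of 33 members passed the threshold in either direction by edgeR or by DESeq2. Over all 12677 genes the shares called by edgeR were 0% in both directions. By edgeR 6 members had an unadjusted p under 0.05, a cut at which all genes were not counted. The median log2 fold change, deleter over WT, was 0.20 over the members and -0.011 over all genes. Col1a2 stood at 62.9 and 76.2 against 17.4 and 46.7, and its log2 fold change was 1.11 ± 0.40 (adjusted p = 0.997). Col10a1 stood at 0.766 and 0.268 against 0.00745 and 0.153 (2.86 ± 0.83, adjusted p = 0.997). Neither difference passed. The 2 groups did not overlap for either gene, which was also true of other members, such as Col4a1 and Col4a2. The share of all genes without overlap was not counted. A p above the threshold at 2 against 2 slices does not show that the genotypes are alike.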

How the data were processed

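The authors deposited raw counts of UMIs per gene and spot from 4 Visium capture areas (10 µm fresh-frozen slices). Per the labels, Space Ranger 2.0.0 and mm10 were used, and no normalization was applied. Deposited spot positions carry other numbers, and only grid positions and tissue flags were used. Tissue spots were joined into connected pieces, 2 per area, each taken as 1 slice. The labels do not say which piece of the first area was at rest: the piece of 1017 spots was taken as rest and that of 1726 as 2 dpi, an assignment given with the definition of this gene group. Slice numbers pair no mice.

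The members, lists and tests were chosen with earlier results of these data known. Named with values were members reaching 1 UMI per 10000 in fibrotic spots of a slice or past a threshold, up to 3 genes per list with the most UMIs, and genes named as chosen after their values were seen (also Ddr2, Col17a1, Col20a1 and Pcolce2). UMIs were summed per slice and zone and tested with edgeR 4.0.16 (TMM, filterByExpr, quasi-likelihood F test, Benjamini-Hochberg over all genes, threshold 0.05) in R 4.3.3. The SE is the absolute log2 fold change over the square root of F. Dcn and Lum were never tested. The step was run on simulated counts in which all genes had the same dispersion and slices differed only in depth and the planted effects. That run does not show how the tests behave with the spread between mice seen here. With 2 slices per group, p-values rest on 1 mouse per slice. The exact permutation tests were two-sided. Poisson intervals are exact, at the 95% level. The authors' own test, on single spots, was not repeated, since spots of one slice are not replicates. Alternatives were DESeq2 1.42.0, no TMM, no filter on low counts, thresholds of 3 and 10 UMIs per 10000, at least 3 Dcn plus Lum UMIs, at least 1000 UMIs per spot, no edge spots, distant spots at 6 or more steps, deleter slices added to the 21 dpi group, and each slice left out. Positions of all 44 members were looked up by identifier in the GENCODE M21 annotation of GRCm38.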

Additional observations from a re-analysis of the deposited data

Results flagged for a closer look

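Of the lists counted beside the collagens, 3 receptor genes had a difference between fibrotic and distant spots that itself differed between 7 and 21 dpi (edgeR interaction, adjusted over all genes): Ddr2 by 1.47 (adjusted p = 0.0426), Itgb1 by 1.05 (adjusted p = 0.0213) and Lair1 by 1.35 (adjusted p = 0.0152) on the log2 scale. No collagen gene did so. The 3 receptor calls were not followed under the alternatives. Over all settings 5 to 940 of all genes had a larger difference at 21 dpi. For 3 of 44 collagen genes both slices of one time lay on the opposite side of both slices of the other. This difference was not tested on its own, and the share of all genes with such a pattern was not counted. Col4a4 was lower in fibrotic than in distant spots by 0.0134 UMIs per 10000 at 7 dpi (mean difference -0.0134) and higher by 0.00468 at 21 dpi. Col9a3 had mean differences of -0.139 at 7 dpi and 0.00894 at 21 dpi, and Col20a1 of -0.0574 and 0.0366. In the interaction model Col20a1 had an adjusted p of 0.0704, Col4a4 of 0.463 and Col9a3 of 0.465. Levels of Col4a4 rest on few UMIs.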

How the results depend on the processing

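No collagen gene called on the main settings changed sign under an alternative in which it was tested. Nor did the log2 difference of the ratio of Col3a1 to Col1a1. The signs of other results were not followed. Of single collagen genes called in fibrotic against distant spots, 457 values under an alternative stayed past the threshold and 20 did not, and in the first ring 330 did and 24 did not, where a gene was tested. The number of members called in fibrotic against distant spots was 29 to 32 with a slice left out (32 on all 4 slices), and in the first ring 21 to 23 (24 on all 4). In the first ring it was also 18 at a threshold of 3, 18 with distant spots at 6 or more steps, 30 at a threshold of 10, 31 with deleter slices added and 30 in the deleter slices alone. In fibrotic spots, 21 against 7 dpi, the 1 call became 3 with deleter slices added, 0 at a threshold of 10, 0 at a threshold of 3, 7 with no filter on low counts, and 0 to 10 with a slice left out (10 without slice 1 and 5 without slice 2 at 21 dpi, 0 without slice 2 at 7 dpi). Deleter against WT, 0 members, became 2 with no filter and 0 to 18 with a slice left out (18 without WT slice 2). The difference between zones across times, 0 members, became 3 with deleter slices added, 3 at a threshold of 10, 4 with no filter, 1 without edge spots, and 0 to 7 with a slice left out (7 without slice 1 at 21 dpi). Whole slices, 0 members, became 2 by DESeq2, 2 with deleter slices added, 2 with no filter, and 0 to 4 with a slice left out (4 without slice 1 at 7 dpi). The cause of these moves was not tested. The calls over all genes moved too. Over the settings 17.7 to 34.1% of all genes were higher and 18.7 to 34.7% lower in fibrotic than in distant spots. In the first ring 8.26 to 22.8% were higher and 4.64 to 19.2% lower. The share of all genes under each single alternative is not given here, so these member counts are not read as results about collagens. The log2 difference of the ratio of Col3a1 to Col1a1 ran from -1.01 to -0.33 with a slice left out. Across all genes, the calls in fibrotic spots ran from 8 to 353 (higher at 21 dpi) and 2 to 220 (higher at 7 dpi) over the alternatives.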
